A study of Mus musculus with 52 samples.

Results

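The genes described here encode the proteasome and the proteins that build or regulate it, and they were taken as every gene symbol that begins with Psma, Psmb, Psmc, Psmd, Psme, Psmf or Psmg followed by a digit. The pattern found 50 of 24421 symbols in the count table, and 48 of them passed the filter on low counts when the 2 cell states were compared. Psma8, the testis form of an alpha subunit, had no count in any library, and Psmb11, the thymus form of a catalytic subunit, stayed at or below 0.0926 CPM (counts scaled to library size) in every clone. The pattern also took in Psmc3ip, which encodes a meiotic recombination factor and not a proteasome protein, and Psme2b, a retrocopy of Psme2. Psmb8, Psmb9 and Psmb10, the interferon-inducible catalytic subunits of the immunoproteasome, are described apart from the constitutive subunits throughout.

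The proteasome degrades proteins tagged with ubiquitin. Its 20S core is a stack of alpha and beta rings in which the beta subunits encoded by Psmb6, Psmb7 and Psmb5 cut the chain, and its 19S particle, with a base of ATPases and a lid that removes ubiquitin, feeds substrates into the core to form the 26S proteasome. In immune cells, and in epithelia that respond to interferon, Psmb9, Psmb10 and Psmb8 take the places of Psmb6, Psmb7 and Psmb5, which changes the peptides made for MHC class I.

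The study measured polyadenylated RNA in Cilia-APEX-IMCD3 cells, an immortalised mouse line from the inner medullary collecting duct of the kidney, after CRISPR cytosine base editing of Wdr34 or Wdr60, the intermediate chains of the dynein-2 motor of cilia. The 13 clones, each from a single cell and counted once per state, were each sequenced as 4 technical replicate libraries. A clone is therefore the unit of biological replication. A p-value over libraries counts technical replicates as samples and mixes their spread with the spread between clones. Ciliated cells comprised control clones D8, H12, A4 and G7 and mutant clones Wdr34 clone 1, Wdr34 clone 3 and Wdr60. Non-ciliated cells comprised control clones AB, 1, 2 and 3 and mutant clones Wdr34 and Wdr60. Per the study's methods ciliated cells were serum-starved, whereas the labels give the same serum medium for every sample. Controls had received the base editor with a guide plasmid that had no target, and mutants were homozygous for missense changes, an alanine-to-valine change in Wdr60 and an arginine-to-tryptophan change in the non-ciliated Wdr34 clone. Mutant lines may recur between the states, which the labels do not say. The study's methods give 4 different control clones, so control lines may recur as well. Its ciliated comparison used 3 control clones, which are not named, whereas all 4 ciliated controls were used here. The tests between states took the control clones as separate, and no pairing was modelled. The study's other Wdr34 allele is a glycine-to-serine change, whose clone has an extra unintended heterozygous change. Which Wdr34 allele clone 1 and clone 3 carry is not in the labels. Per the study, sequencing of non-ciliated cells was complete before the glycine-to-serine mutant was obtained. The labels do not give the rounds of sequencing, so cell state, any difference in serum and time of sequencing cannot be told apart. Missense edits leave the transcript in place, so the counts of Wdr34 and Wdr60 do not check the labels.

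Library totals ran from 14816218 to 28084979 gene counts, and the 50 genes took 0.506% to 0.649% of the counts in ciliated libraries and 0.713% to 1.01% in non-ciliated libraries. All 78 pairs of libraries within a clone differed by more than sampling noise. Library 1 of control clone AB stood apart, with 8754 CPM summed over the 31 constitutive 26S subunits against 6087, 6148 and 6180 in the clone's other libraries, and library 4 of G7 stood apart with 4932 CPM against 4101, 4142 and 4174. Collecting duct markers (10 genes, with Aqp2 at 0 in 12 of 13 clones) summed to 885 CPM in G7, 1254 CPM in Wdr34 clone 3 and 779 CPM in non-ciliated control 2, against 2498 to 4337 CPM in the other 10 clones. In G7 the epithelial genes Cdh1 (14.7 CPM) and Epcam (13.7 CPM) and the keratins were low, whereas the renal factors Pax2 (315 CPM) and Pax8 (427 CPM) were higher than in any other clone. Immune cell markers (6 genes) summed to at most 5.4 CPM in any clone, with Adgre1 and Cd3e at 0 in all of them.

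Levels differed widely within each role when CPM was divided by transcript length in kilobases and averaged over the 13 clones. Among alpha subunits the level per length ran from 11.5 for Psma5 to 265 for Psma7, and among constitutive beta subunits from 41.4 for Psmb5 to 234 for Psmb7. The ATPases of the base, which unfold the substrate, ran from 75.5 for Psmc6 to 165 for Psmc3. The scaffolds and ubiquitin receptors of the base ran from 116 for Psmd1 to 172 for Psmd2, and the lid subunits from 41.6 for Psmd11 to 143 for Psmd3. Assembly factors ran from 15.4 for Psmg4 to 60.8 for Psmg2 among core chaperones and from 12.2 for Psmd10 to 26.9 for Psmd5 among base chaperones. The activators ran from 1.51 for Psme2 to 92.6 for Psme3, and Psmf1, which encodes an inhibitor of the core, stood at 16.3. Psmb10 stood at 11.7 per kilobase, and Psmb9 at 0.399 was the lowest of the immunoproteasome genes. How reads shared by near-identical copies were counted is not given in the sources used here, so the low level of Psme2 (0.675 to 2.52 CPM over clones) beside its retrocopy Psme2b (29.3 to 53.1 CPM) is uncertain. Strand use is not given either, and Psma4, Psmc3ip, Psmd1, Psmd10, Psme1, Psme2b, Psme4 and Psmf1 overlap another protein-coding gene.

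The first comparison asked whether proteasome genes differ between ciliated and non-ciliated control cells. Of the 31 constitutive 26S subunits 16 were called lower in ciliated controls, 10 of 17 in the 19S particle and 6 of 14 in the 20S core, while Psme1 and the sparsely counted immunoproteasome gene Psmb8 were called higher. Summed over the 31 constitutive subunits, the ciliated control clones stood at 4684 CPM for D8, 4427 for H12, 5242 for A4 and 4338 for G7. The non-ciliated control clones stood at 6792 for AB, 7037 for 1, 6196 for 2 and 6209 for 3. No ciliated clone reached the lowest non-ciliated clone. The sum was 28.8% lower in ciliated controls (4673 ± 407 against 6559 ± 423 CPM, SD, n = 4 clones each, exact 2-sided permutation test over clones, p = 0.0286, the smallest that 70 splits allow). The 14 subunits of the 20S core were 23.1% lower (1648 ± 92.0 against 2143 ± 194 CPM) and the 17 subunits of the 19S particle 31.5% lower (3025 ± 358 against 4416 ± 310 CPM, each SD, n = 4, exact permutation p = 0.0286). Without library 1 of AB and library 4 of G7, both picked for their high 26S sums, the 26S sum was 27.7% lower (exact permutation p = 0.0286).

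**Figure D1:**
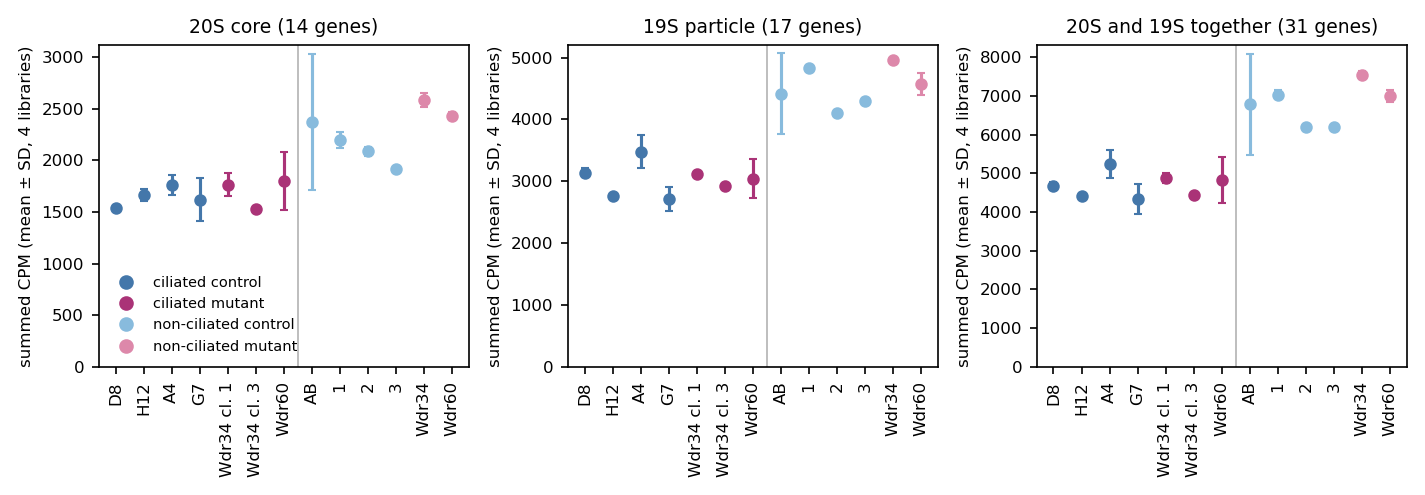
Summed CPM of the 14 constitutive subunits of the 20S core and the 17 of the 19S particle in each of the 13 clones, and of both together, with points for the mean and bars for the SD over the 4 libraries of a clone. The 26S sum lay between 4338 and 5242 CPM in the 7 ciliated clones and between 6196 and 7546 CPM in the 6 non-ciliated clones.

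Gene by gene, 18 of the 48 members tested fell and 2 rose in ciliated controls at a Benjamini-Hochberg adjusted p below 0.05 by edgeR's quasi-likelihood test on clone sums (4 against 4 clones), where 7.33% of all 13119 genes tested fell and 6.11% rose. The median log2 fold change was -0.39 over the members and 0.01 over all genes. Clone means of log2 CPM did not overlap for 29 members, 27 below and 2 above, against 11.8% and 10.3% of all genes. Each of these 29 had an exact permutation p of 0.0286, which became 0.129 after adjustment over all genes tested. The 31 constitutive subunits had 16 that fell, 29 with a negative sign and a median of -0.43. How many genes passed rested on single clones, since only 3 members (Psma4, Psmb3 and Psmd7) were called lower without control 1, 7 without H12, 7 without control 3, 9 without AB and 11 without D8. Calls fell over the whole table too, from 962 genes lower to 148, 344, 256, 463 and 682 in the same order.

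The 19S particle had a median log2 fold change of -0.55 and the 20S core one of -0.38. All 17 members of the 19S particle had a negative sign and 10 fell: 3 of 6 ATPases (Psmc1, Psmc5 and Psmc6), 2 of 3 other base subunits (Psmd1 and Psmd2) and 5 of 8 lid subunits (Psmd3, Psmd6, Psmd7, Psmd12 and Psmd14). Psmd7, a lid subunit that partners Psmd14, stood at 127, 98.7, 136 and 104 CPM in D8, H12, A4 and G7 and at 228, 265, 197 and 230 CPM in AB, 1, 2 and 3. The ciliated clones all lay below the non-ciliated ones, and Psmd7 fell by 0.99 on the log2 scale (SE 0.149, edgeR adjusted p = 0.0107). Psmd14, the deubiquitinase that removes ubiquitin chains before degradation, stood at 112, 78.3, 108 and 77.8 CPM against 184, 198, 153 and 195 CPM. Its groups did not overlap either, and Psmd14 fell by 0.97 (SE 0.171, edgeR adjusted p = 0.0143). Psmd2, a scaffold of the base and a docking site for ubiquitin receptors, stood at 391 ± 37.0 against 625 ± 50.4 CPM (SD, n = 4) and fell by 0.70 on the log2 scale (edgeR adjusted p = 0.0145). The ubiquitin receptor gene Psmd4 was not called and overlapped between states, at 164 to 236 CPM in ciliated and 181 to 336 CPM in non-ciliated controls.

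Within the 20S core 6 of 14 constitutive genes fell, namely Psma1, Psma2, Psma4, Psma7, Psmb3 and Psmb7. Psmb3, a structural beta subunit, stood at 52.4, 51.5, 59.8 and 55.2 CPM in D8, H12, A4 and G7 and at 107, 100, 87.0 and 85.4 CPM in AB, 1, 2 and 3. The states were separate, and Psmb3 fell by 0.80 (SE 0.115, edgeR adjusted p = 0.00974). Psma4, an alpha-ring subunit, stood at 49.3, 42.3, 52 and 48.9 CPM against 84.5, 88.7, 76.7 and 77.8 CPM and was also separate (log2 fold change -0.78, SE 0.113, edgeR adjusted p = 0.00974). Psma4 overlaps the protein-coding gene AY074887 by annotation, so its reads are less certain. The catalytic subunits differed in size: Psmb7, which cuts after basic residues, fell by 0.53 (213 ± 22.9 against 310 ± 24.4 CPM, SD, n = 4, edgeR adjusted p = 0.021). Psmb6, which cuts after acidic residues, gave -0.27 (edgeR adjusted p = 0.163) and Psmb5, which cuts after hydrophobic residues, gave -0.20 (32.5 ± 3.96 against 37.7 ± 3.83 CPM, edgeR adjusted p = 0.309). Psma5 (0.02) and Psmb4 (0.05) were the only constitutive subunits with a positive sign, and both overlapped between states.

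**Figure D2:**
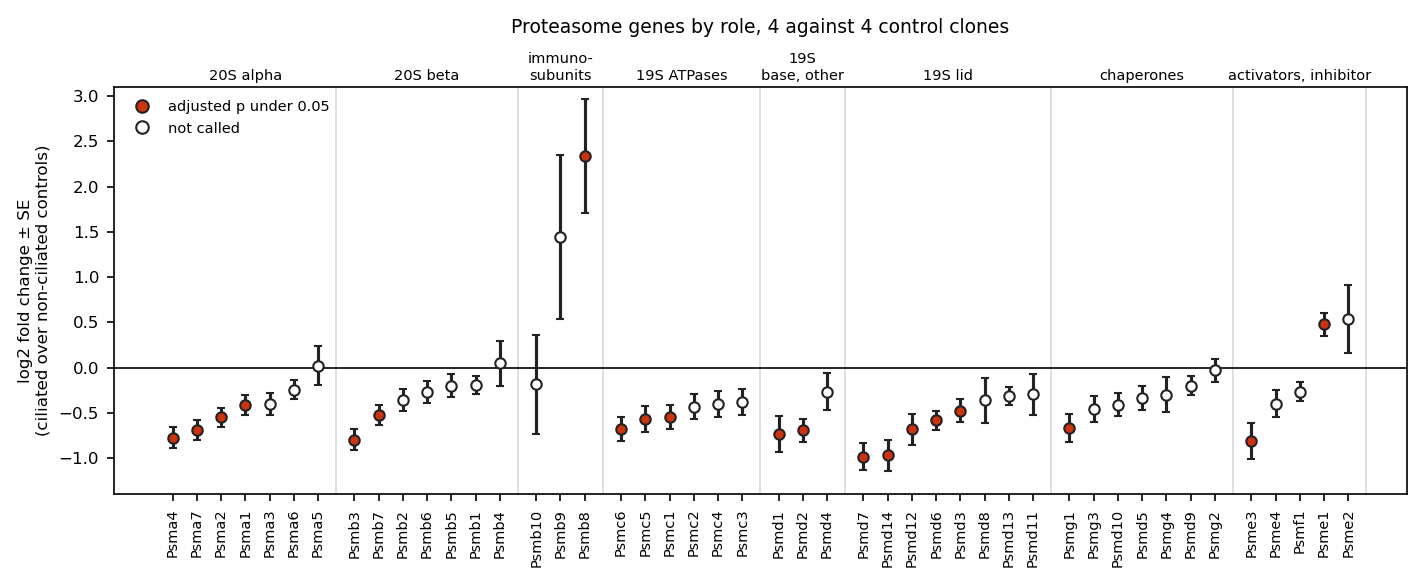
Log2 fold change of ciliated against non-ciliated controls for the members tested other than Psmc3ip and Psme2b, ordered by role, with bars for the standard error and filled points for members called at an adjusted p below 0.05 (edgeR). The 19S members all lie below 0, with Psmd7 at -0.99 lowest, and Psmb8 lies at 2.34.

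Assembly factors and regulators were mixed. Of the 4 core chaperones, which pair alpha subunits into rings, Psmg1 fell by 0.67 (23.5 ± 3.60 against 37.3 ± 3.80 CPM, SD, n = 4, edgeR adjusted p = 0.0283), whereas Psmg2 gave -0.03 and overlapped. None of the 3 base chaperones Psmd5, Psmd9 and Psmd10 passed, with a median of -0.34. Psme3, the nuclear activator that opens the core without ubiquitin, stood at 221, 159, 214 and 145 CPM in ciliated and at 276, 403, 272 and 326 CPM in non-ciliated controls. The highest ciliated clone lay below the lowest non-ciliated one, and Psme3 fell by 0.82 (SE 0.2, edgeR adjusted p = 0.0333). Psme1, a subunit of the interferon-inducible activator that works with the immunoproteasome, went the other way, at 91.9, 117, 114 and 115 CPM in D8, H12, A4 and G7 against 92.1, 71.3, 78.1 and 72.4 CPM in AB, 1, 2 and 3. D8 and AB had nearly the same mean CPM, and the groups were apart only on the log2 scale, where Psme1 rose by 0.48 (SE 0.126, edgeR adjusted p = 0.0411, called in 11 of 21 alternatives). Its partner Psme2 gave 0.54 and was not called (edgeR adjusted p = 0.353).

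Promoter sequence was read because these subunits moved together and because the transcription factor of the proteasome recovery response is known to bind antioxidant response elements. The letters TGACNNNGC were searched on both strands from 250 bases before to 50 bases after the start set for each promoter (GRCm38.p6). For some genes, such as Psmb6, that start differs from the RefSeq gene start. The motif was present in 6 of the 42 member promoters on file (14.3%) and in 3781 of 27025 promoters in all (14%), so the share among members was near the background. It was found in Psmd12, a lid subunit, and Psmc6, an ATPase, both of which fell, in the catalytic subunits Psmb5 and Psmb6, and in Psmd9 and Psme4. The windows of the subunits of the 26S proteasome are shown 5′ to 3′ on the gene's strand with the matched letters in capitals, for Psmd12 at chr11:107479278-107479309 (+), Psmc6 at chr14:45329577-45329625 (+), Psmb5 at chr14:54618014-54618062 (-) and Psmb6 at chr11:70525328-70525376 (+). A match describes letters and not a bound site.
Psmd12: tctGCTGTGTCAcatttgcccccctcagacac
Psmc6: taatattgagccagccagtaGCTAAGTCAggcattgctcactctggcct
Psmb5: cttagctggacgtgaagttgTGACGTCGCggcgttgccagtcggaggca
Psmb6: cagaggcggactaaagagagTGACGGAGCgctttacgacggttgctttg

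Among ciliated clones the immunoproteasome genes varied more than any constitutive subunit did, and among non-ciliated clones Psmb8 and Psmb9 did so but Psmb10 did not. Over the 7 ciliated clones the coefficient of variation was 109% for Psmb8, 78.8% for Psmb9 and 84.8% for Psmb10, while the 31 constitutive subunits ran from 3.19% (Psmd6) to 29.9% (Psmd8) with a median of 12.9%. Over the 6 non-ciliated clones it was 66.4%, 96.8% and 15.9%, against 5.64% (Psmb1) to 30.7% (Psmb4) with a median of 10.6%. Psmb8 had only 0 to 103 counts per library and Psmb9 0 to 53, so their counting error is large, whereas Psmb10 had 65 to 1240 counts.

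Psmb8, the immunoproteasome counterpart of Psmb5, stood at 0.557, 0.843, 0.692 and 2.27 CPM in ciliated controls D8, H12, A4 and G7, and at 0.338, 0.0939, 0.316 and 0.135 CPM in non-ciliated controls AB, 1, 2 and 3. The ciliated clones all lay above the non-ciliated ones, and Psmb8 was called higher (fitted log2 fold change 2.34, SE 0.632, edgeR adjusted p = 0.0444, exact permutation p = 0.0286, called in 7 of 18 alternatives). Psmb8 entered the test through its ciliated level and did not pass the filter among non-ciliated libraries alone, so the call is no independent support and the fitted size is uncertain. It rested on 36, 65, 50 and 192 counts per ciliated clone against 25, 7, 23 and 10 per non-ciliated clone, and without G7 the log2 fold change was 1.65 (edgeR adjusted p = 0.072). Psmb10, the counterpart of Psmb7, stood at 5.53, 10.6, 6.38 and 31.7 CPM in ciliated controls and at 14.8, 18.9, 16.9 and 12 CPM in non-ciliated controls. The groups overlapped only through G7, and Psmb10 gave -0.19 (SE 0.548, edgeR adjusted p = 0.846). Without G7 it was -1.07 (edgeR adjusted p = 0.0485). Psmb9, the counterpart of Psmb6, gave 1.45 (SE 0.906, edgeR adjusted p = 0.306) and its groups overlapped, at 0.138 to 1.65 CPM against 0.0915 to 0.714 CPM.

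Control G7 and Wdr34 clone 3 had the highest levels of all 3 immunoproteasome genes. In Wdr34 clone 3 Psmb8 stood at 3.94 CPM, Psmb9 at 1.56 CPM and Psmb10 at 35.5 CPM, against 2.27, 1.65 and 31.7 CPM in control G7. The other mutant clones were lower, with Psmb8 at 0.218 CPM in Wdr34 clone 1, 0.293 CPM in ciliated Wdr60, 0.0311 CPM in non-ciliated Wdr34 and 0.194 CPM in non-ciliated Wdr60. Per transcript length, Psmb10 made up 13.1% of Psmb7 and Psmb10 together in G7 and 19.6% in Wdr34 clone 3, against 2.21% to 4.42% in the other 5 ciliated clones and 2.77% to 5.23% in the 6 non-ciliated clones. The 3 immunoproteasome genes made up 7.08% of the 6 catalytic genes in G7 and 8.82% in Wdr34 clone 3, against 1.25% to 2.31% and 1.59% to 2.85% in the same clones as before. G7 and Wdr34 clone 3 were also the ciliated clones with the lowest summed collecting duct markers, and Wdr34 clone 3 alone had a raised sum of 4 fibroblast markers (31 CPM, mostly Dcn at 29.1 CPM, against at most 5.48 CPM elsewhere). Non-ciliated control 2, with the lowest collecting duct sum of all, stood at 0.316 CPM for Psmb8 and 16.9 CPM for Psmb10, within the range of the other non-ciliated controls. The part of these markers in the immunoproteasome levels was not tested. Across the 7 ciliated clones, where 2 clones stand far above the rest, Psmb8 and Psmb10 correlated at r = 0.908 and Psmb10 and the interferon regulatory factor gene Irf1 at r = 0.900, and across the 6 non-ciliated clones these pairs gave -0.20 and -0.04. Psmb8 and Irf1 gave 0.729 and 0.808, and Psmb9 and the transporter gene Tap1 0.914 and 0.867, in ciliated and non-ciliated clones, and among the latter control AB alone stood high for Psmb9 (0.714 CPM) and Tap1 (4.97 CPM).

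**Figure D3:**
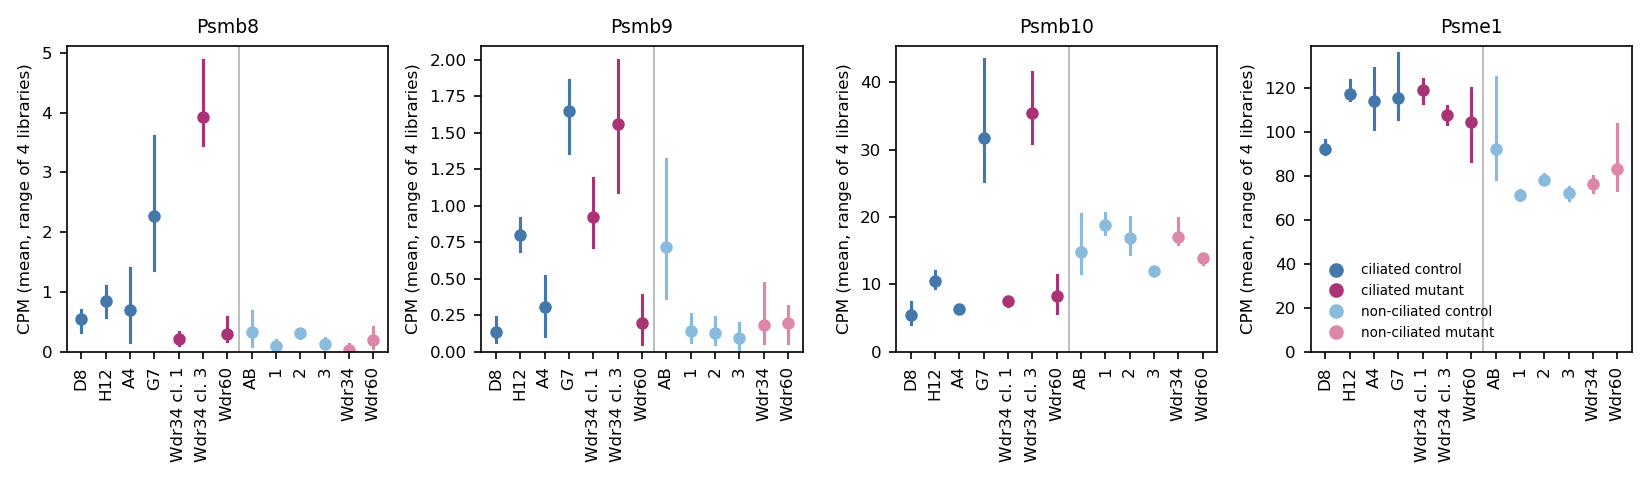
CPM of Psmb8, Psmb9, Psmb10 and Psme1 in each clone, with points for the mean and bars for the range of its 4 libraries. Control G7 and Wdr34 clone 3 stand highest for the 3 immunoproteasome genes, at 31.7 and 35.5 CPM for Psmb10.

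The 250 bases before the start of each immunoproteasome gene are shown because interferon acts on such genes through gamma-activated and interferon-stimulated elements, searched here on both strands as TTCNNNGAA and as GAAA, any 2 bases and GAAA. Psmb8 lies at chr17:34198195-34201454 (+) beside Psmb9 at chr17:34182030-34187330 (-), and Psmb10 lies at chr8:105935728-105938392 (-). The windows, read 5′ to 3′ on the gene's strand, are chr17:34197945-34198194 for Psmb8, chr17:34187331-34187580 for Psmb9 and chr8:105938393-105938642 for Psmb10 (RefSeq, GRCm38.p6). Psmb8 held 1 match to the gamma-activated letters, given in capitals, and the other windows held no match to these letters. The gamma-activated letters were in 9.55% of all promoters and 7.14% of member promoters (3 of 42), and the interferon-stimulated letters in 3.99% and 11.9% (5 of 42). A window without a match says only that these letters are not in it.
Psmb8: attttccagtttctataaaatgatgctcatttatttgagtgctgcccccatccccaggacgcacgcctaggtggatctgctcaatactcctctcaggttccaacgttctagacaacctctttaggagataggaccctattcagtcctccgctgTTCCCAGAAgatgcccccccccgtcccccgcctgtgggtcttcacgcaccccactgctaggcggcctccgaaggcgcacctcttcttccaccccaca
Psmb9: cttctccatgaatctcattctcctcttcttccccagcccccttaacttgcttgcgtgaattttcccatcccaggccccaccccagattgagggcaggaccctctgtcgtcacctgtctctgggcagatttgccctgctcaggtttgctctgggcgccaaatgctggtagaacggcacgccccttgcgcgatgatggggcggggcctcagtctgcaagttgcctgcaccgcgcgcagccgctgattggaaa
Psmb10: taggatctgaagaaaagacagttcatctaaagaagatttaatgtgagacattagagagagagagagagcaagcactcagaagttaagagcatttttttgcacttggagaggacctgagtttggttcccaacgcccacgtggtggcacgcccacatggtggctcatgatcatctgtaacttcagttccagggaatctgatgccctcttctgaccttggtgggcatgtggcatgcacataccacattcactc

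The second comparison asked whether dynein-2 mutant clones differ from controls when ciliated. Little moved: Psmg3, a chaperone that assembles the alpha ring, was the only member called higher of 48 tested, where 1.58% of 11950 genes rose and 1.59% fell, and no member was called lower (edgeR on 12 against 16 libraries, 4 members at an unadjusted p below 0.05). The median log2 fold change was 0.02 over members and -0.01 over all genes. Psmg3 stood at 21.4, 23.3 and 25.9 CPM in Wdr34 clone 1, Wdr34 clone 3 and Wdr60 and at 18.2, 16.9, 18.0 and 19.6 CPM in D8, H12, A4 and G7. Every mutant clone lay above every control, and Psmg3 rose by 0.36 (SE 0.0914, edgeR adjusted p = 0.0257, exact permutation p = 0.0286, the smallest that 35 splits allow). Psmd9, a base chaperone, was the only other member whose clones did not overlap (63.3 ± 2.69, n = 3, against 53.4 ± 4.05 CPM, n = 4, SD, edgeR adjusted p = 0.127), against 1.17% of all genes above and 0.837% below. With the libraries of each clone summed, and with limma's voom and clone as a block, no member passed, nor did Psmg3 when any of the 4 replicate numbers was left out.

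No difference beyond the spread between clones was found in the sums over the proteasome. The 26S sum was 4881 CPM in Wdr34 clone 1, 4451 in Wdr34 clone 3 and 4842 in Wdr60, 1.11% above the control mean (4725 ± 237 against 4673 ± 407 CPM, exact permutation p = 0.771, n = 3 and 4). The 20S sum was 1765, 1531 and 1796 CPM in the same order, against 1542 to 1763 CPM in the controls (exact permutation p = 0.543, n = 3 and 4). Constitutive catalytic genes gave log2 fold changes of 0.16 for Psmb5, 0.14 for Psmb6 and -0.08 for Psmb7, and the activator genes gave 0.00 for Psme1 and 0.07 for Psme2, none of them called. Psmb8 gave 0.44 (SE 0.550, edgeR adjusted p = 0.717), Psmb9 0.28 (edgeR adjusted p = 0.798) and Psmb10 0.34 (edgeR adjusted p = 0.702). These values depend on the clones with high immunoproteasome levels: without Wdr34 clone 3 Psmb8 was lower in mutants (log2 fold change -2.08, edgeR adjusted p = 0.00929), and without both it and G7 also lower (-1.44, edgeR adjusted p = 0.0124). The mutant clones then left stood at 0.218 and 0.293 CPM, below every ciliated control (0.557 CPM or more). Psmb8 was thus tested through its control level, and these calls are no independent support. Without G7 alone Psmb10 was higher in mutants (1.19, edgeR adjusted p = 0.0204). That call rested on Wdr34 clone 3 (35.5 CPM). The other mutant clones stood at 7.6 and 8.33 CPM, within the range of the controls left in.

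In non-ciliated cells 7 of 46 members rose in mutants and none fell (edgeR on 8 against 16 libraries), where 7.12% of 12012 genes rose and 7.89% fell, and 14 members had an unadjusted p below 0.05. The genes that rose were Psma5 and Psma7 of the alpha ring, the catalytic Psmb7, the ATPase Psmc2 and the chaperones Psmd9, Psmg2 and Psmg3. Clone means of both mutants lay above all 4 controls for 13 members and below for none, against 6.94% above and 5.93% below among all genes. All 14 constitutive 20S genes had a positive sign (median 0.20 against 0.00 over all genes) and 3 were called, while 13 of 17 genes of the 19S particle had a positive sign and 1 was called. In the Wdr34 clone all 31 constitutive subunits were positive against the controls (median 0.20), while 23 of 31 were positive in the Wdr60 clone (median 0.05). With 2 mutant clones the smallest exact permutation p is 0.0667, so the permutation test cannot reach 0.05. No member passed with the libraries of a clone summed (edgeR, 5 members at an unadjusted p below 0.05) or with limma's voom and clone as a block (0 at an unadjusted p below 0.05).

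Psmb7 stood at 395 and 435 CPM in the non-ciliated Wdr34 and Wdr60 clones and at 334, 302, 325 and 279 CPM in controls AB, 1, 2 and 3. Both mutants lay above all controls, and Psmb7 rose by 0.42 on the log2 scale (SE 0.0848, edgeR adjusted p = 0.00192, exact permutation p = 0.0667). Psmg3 stood at 35.2 and 35 CPM against 30.3, 24.7, 23.7 and 22.4 CPM and also had no overlap (0.47, SE 0.129, edgeR adjusted p = 0.0147). Psma5 stood at 18.8 and 16.3 CPM against 14.8, 15.3, 11.6 and 10.4 CPM (0.43, SE 0.123, edgeR adjusted p = 0.019). Psmd9, with clones at 82.2 and 77.3 CPM against 58.6 to 67.4 CPM, and Psmc2, at 357 and 410 CPM against 279 to 340 CPM, were separate from controls as well and rose by 0.37 and 0.33 (edgeR adjusted p = 0.00354 and 0.00332). Psmg2 rose by 0.25 (edgeR adjusted p = 0.0293) and Psma7 by 0.22 (edgeR adjusted p = 0.0479). The other catalytic genes gave 0.32 for Psmb5 (edgeR adjusted p = 0.0738) and 0.24 for Psmb6 (edgeR adjusted p = 0.0824), while Psmb10 gave -0.01, Psme1 0.02 and Psme2 -0.35, none called. Psmb8 and Psmb9 did not pass the filter here, with at most 21 counts in any non-ciliated library.

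**Figure D4:**
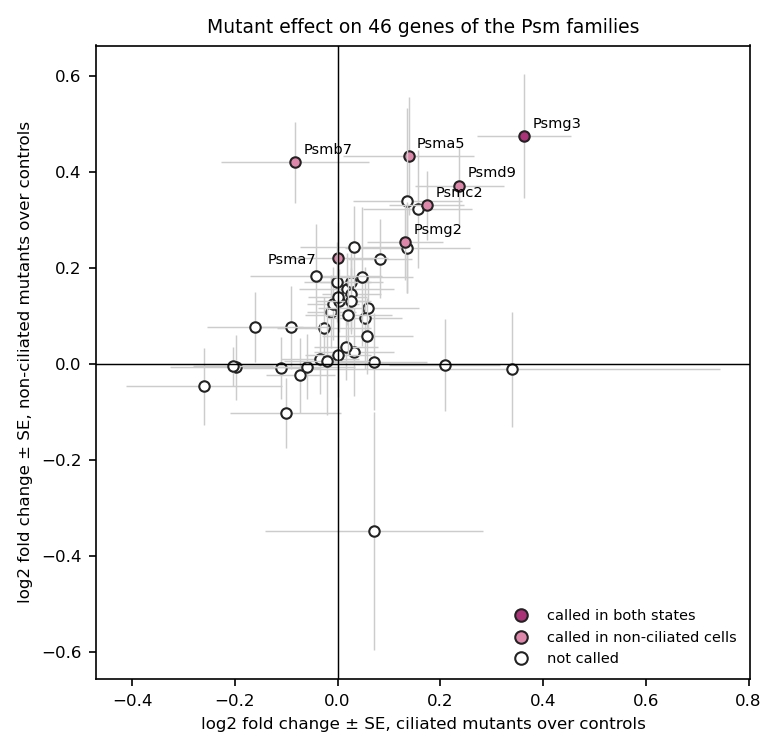
Log2 fold change of mutants against controls in ciliated cells (horizontal axis) and non-ciliated cells (vertical axis) for the 46 members tested in both, with bars for the standard error. Psmg3, at 0.36 and 0.47, is the only member called in both states, and the 7 members called in non-ciliated cells lie between 0.22 and 0.47 on the vertical axis.

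The number called depended on which libraries were kept. It rose without library 1 of control AB, in which the 26S sum was high. Without it 18 members rose and 1 fell (Psme4, log2 fold change -0.14, edgeR adjusted p = 0.0498), and Psmb5 (0.39, edgeR adjusted p = 0.00525) and Psmb6 (0.31, edgeR adjusted p = 0.000368) were then among those higher. Over all genes 1421 then rose and 1597 fell of 11979, against 855 and 948 before. Without the 4 libraries of clone AB 19 members rose, and over all genes 1760 rose and 1932 fell. Other omissions cut the calls: without replicate number 2, 3 or 4, 196, 183 and 233 of all genes rose and 239, 233 and 258 fell. Members at an unadjusted p below 0.05 (edgeR) then numbered 8, 7 and 8, and 7 without control 3, against 14 before. Summed over subunits, the 20S core was 17% higher in the mutants (2506 ± 107, n = 2, against 2143 ± 194 CPM, n = 4, exact permutation p = 0.133), with both mutants above all controls, and the 26S sum was 10.9% higher (7272 ± 387 against 6559 ± 423 CPM, exact permutation p = 0.2). Without library 1 of AB these became 21.6% (exact permutation p = 0.0667) and 13.7% (exact permutation p = 0.133). That library was picked for its high 26S sum, so leaving it out lowers the control level by choice. The larger differences and the added calls are no independent support.

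**Figure D5:**
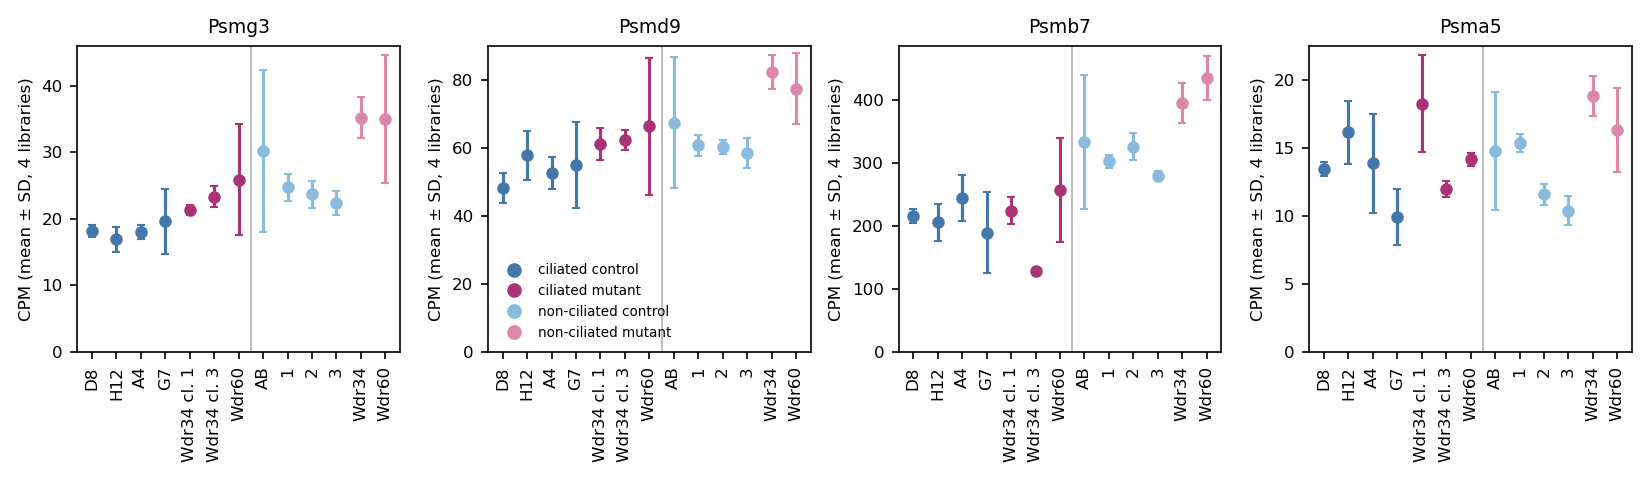
CPM of Psmg3, Psmd9, Psmb7 and Psma5 in each clone, with points for the mean and bars for the SD over its 4 libraries. For Psmg3 the mutants lie above the controls of their state in both states, at 21.4 to 25.9 CPM against 16.9 to 19.6 CPM in ciliated cells and at 35 and 35.2 CPM against 22.4 to 30.3 CPM in non-ciliated cells.

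Whether the mutant effect differed between states was tested as an interaction over all 52 libraries. No member passed (edgeR, DESeq2, clone sums and limma's voom each 0 of 48, with 2 members at an unadjusted p below 0.05 by edgeR), where 1.5% of 12544 genes were called higher and 0.391% lower. Psmb7 came nearest, with a difference in log2 fold change of -0.50 (SE 0.180, edgeR adjusted p = 0.151), and it was called without G7 (-0.54, edgeR adjusted p = 0.036) and without ciliated Wdr60 (-0.70, edgeR adjusted p = 0.01). Of the 31 constitutive subunits 30 had a negative sign, with a median of -0.13 against 0.00 over all genes. Without the non-ciliated Wdr34 clone the median was -0.06 and 19 of 31 were negative. Psmb10 gave 0.37 (edgeR adjusted p = 0.78), and without G7 it was called at 1.21 (edgeR adjusted p = 0.031). Of the ciliated mutant clones only Wdr34 clone 3 had a high Psmb10 level (35.5 CPM, against 7.6 and 8.33 CPM).

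Each mutant clone was also set against the 4 controls of its state, where clone and genotype cannot be told apart. The 4 libraries of a mutant clone are technical replicates, whereas the control libraries also hold the spread between 4 clones. P-values and calls for single clones mix the 2 kinds of spread and hold none between mutant clones. In ciliated Wdr34 clone 1 no member was called (edgeR, 6 of 48 at an unadjusted p below 0.05, and 1, Psmb8, by DESeq2), where 0.937% of genes rose and 1.26% fell, and Psmb8 gave -2.30 (SE 0.664, edgeR adjusted p = 0.0764). Psmb8 stood at 0.218 CPM in this clone and was tested through its control level, which was highest in G7 (2.27 CPM). Its values here, including the DESeq2 call, are no independent support. In ciliated Wdr34 clone 3, where 9.85% of genes rose and 10.9% fell, 5 members rose and 5 fell. Psmb8 was higher by 1.83 and Psmb10 by 1.38 on the log2 scale, with Psme2b, Psmg3 and Psmb2 also higher. Psmb7, the constitutive counterpart of Psmb10, stood at 128 CPM against 189 to 244 CPM in controls (log2 fold change -0.74). Psmf1, Psma7, Psmd5 and Psmd14 were lower too, by 0.60, 0.48, 0.46 and 0.40 on the log2 scale. In G7, the control with high Psmb10, Psmb7 stood at 189 CPM beside 206 to 244 CPM in the other ciliated controls.

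The ciliated Wdr60 clone had 1 member called higher, Psmg3 (0.50, edgeR adjusted p = 0.038), and none lower, where 2.91% of genes rose and 3.43% fell. Its libraries split, with 26S sums of 4224 and 4442 CPM in libraries 1 and 2 and 5365 and 5335 CPM in libraries 3 and 4. Its Psmb8 stood at 0.293 CPM and gave -1.88 (edgeR adjusted p = 0.0896), again tested through the control level and no independent support. In the non-ciliated Wdr34 clone 7 members rose and none fell, where 5.89% of genes rose and 5.6% fell. They were Psma2, Psma3, Psma5, Psmb7, Psmd2, Psmd9 and Psmg3, with log2 fold changes from 0.23 for Psmd2 to 0.53 for Psma5. In the non-ciliated Wdr60 clone Psmb7 (0.49, edgeR adjusted p = 0.00761) and Psmc2 (0.43) rose and none fell, where 5.98% of genes rose and 6.01% fell. Each of these calls sets 1 mutant clone against controls shared with other comparisons. A gene called in more than 1 of them, such as Psmb7 or Psmg3, therefore gives no independent support.

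Other genes of the ubiquitin and proteasome pathway, a list of 29 that were all tested, moved in both directions between states. In ciliated controls 2 rose and 4 fell, where 6.11% of all genes rose and 7.33% fell. The ubiquitin gene Ubb rose (495 ± 43.4 against 315 ± 30.3 CPM, SD, n = 4, log2 fold change 0.67, edgeR adjusted p = 0.0153). Ube3c, a ubiquitin ligase that acts on the proteasome, fell by 0.60, the ubiquitin-activating enzyme gene Uba1 by 0.58 and the segregase gene Vcp by 0.48. Nfe2l1, which encodes the factor that restores proteasome transcription, gave 0.40 and was not called (382 ± 64.5 against 289 ± 45.5 CPM, SD, n = 4, edgeR adjusted p = 0.14). Nfe2l2, which encodes an antioxidant response factor, fell in mutants of both states, by 0.41 in ciliated (edgeR adjusted p = 0.0376) and by 0.44 in non-ciliated cells (edgeR adjusted p = 0.00156). It was the only gene of the 29 called in ciliated mutants, where 1.58% of all genes rose and 1.59% fell. The ciliated mutant clones overlapped the controls for Nfe2l2 (139 to 204 against 171 to 293 CPM). These calls were made over libraries, and with clone sums no gene of the whole table was called in either state. Non-ciliated mutants also had higher Zfand2a (0.45), Ubb (0.28) and Ube3c (0.25) and lower Ngly1, which fell by 0.53. That made 3 of 29 higher and 2 lower, where 7.12% of all genes rose and 7.89% fell, so the list was near the background.

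Interferon and MHC class I genes, a list of 24 with 23 tested, were shown beside the immunoproteasome. In ciliated controls, where 6.11% of all genes rose and 7.33% fell, 3 rose and none fell: Irf7 (1.85), the peptide-loading gene Tapbp (179 ± 43.4 against 56.5 ± 15 CPM, SD, n = 4, log2 fold change 1.65, edgeR adjusted p = 0.00974) and Tapbpl (0.93), with a list median of 0.64 against 0.01 over all genes. The peptide transporter gene Tap1 gave 0.88 (edgeR adjusted p = 0.354). In ciliated mutants none was called (edgeR, 3 at an unadjusted p below 0.05), where 1.58% of all genes rose and 1.59% fell. In non-ciliated mutants, where 7.12% of all genes rose and 7.89% fell over libraries and none by clone sums, Tapbpl rose and 5 genes fell, Ifit3, Stat2, Jak2, Irf9 and Ifngr2, of which Ifit3 fell by 2.31 (36.6 ± 4.14, n = 2, against 182 ± 133 CPM, n = 4, SD, edgeR adjusted p = 0.000814, with overlapping clones).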

How the data were processed

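RNA-seq was done on 52 libraries, 4 per clone. The authors deposited whole-number counts per gene, made with Rsubread's featureCounts in R 3.4.4 against GRCm38/mm10, and the study used DESeq2 1.18.1. Strand and the handling of reads that map more than once are not given in the sources used here, and either can move counts between copies and overlapping genes.

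Counts were read as deposited. CPM values were scaled by TMM over all libraries. Tests used edgeR 4.0.16 (quasi-likelihood F test, filterByExpr, TMM) in R 4.3.3 over the whole table with Benjamini-Hochberg adjustment over all genes tested, on clone sums between states and on libraries between mutants and all 4 control clones of their state. A gene was called at an adjusted p below 0.05. Exact 2-sided permutation tests used clone means of log2(CPM + 0.5). Alternatives were DESeq2 1.42.0, limma 3.58.1 (voom with clone as a block), RLE factors, looser and stricter filters (1 count in any library, 10 in every library), leaving out each clone or replicate number, the replicate block and a minimum change of 1 on the log2 scale. Total counts without TMM, and leaving out clones with low collecting duct markers or the libraries that stood apart, were added after seeing the data.

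Members and gene lists were chosen with earlier results of these data known. Named genes were Psmb5 to Psmb10, Psme1 and Psme2 in every comparison, up to 5 further called members per direction by size of change, the highest and lowest per length in each role, and up to 5 called genes per direction of the 2 other lists, of which 2 are not reported here. Psma3, Psmb2, Psmd1, Psmd3, Psmd4 and the further members named only as called or as extremes were named after their values were seen. Depth was 14816218 to 28084979 counts per library.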

Additional observations from a re-analysis of the deposited data

Results flagged for a closer look

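In 14 of 90 groups of 4 libraries or clones, the highest or lowest value lay so far from its nearest neighbour that the gap, as a part of the group's range, passed Dixon's critical value. Chance alone gives this in about 1 in 20 groups, and groups of the same libraries are not independent of each other.

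The summed 26S subunits were high in 1 library of control AB (8754 CPM) and 1 library of G7 (4932 CPM), and the same clones each had 1 library high for Psmg3 (48.3 CPM in AB and 26.9 CPM in G7). Psmg3 also stood apart in 1 library of Wdr34 clone 3 (25.6 CPM) and 1 of non-ciliated Wdr60 (20.7 CPM). Among clones, Psmb8 in G7 (2.27 CPM), Psmb9 in AB (0.714 CPM) and Psme1 in D8 (91.9 CPM, the lowest ciliated control) stood apart from the other controls of their state. For Psmb8 single libraries stood apart in ciliated Wdr60 (0.583 CPM), non-ciliated control 3 (0.23 CPM) and non-ciliated Wdr34 (0.124 CPM), each of which rests on at most 11 counts. In non-ciliated Wdr34 1 library stood apart for Psmb9 (0.474 CPM) and 1 for Psmb10 (19.8 CPM).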

How the results depend on the processing

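The lower proteasome subunits in ciliated controls kept their direction under the alternatives run, with the median over the 31 constitutive subunits between -0.54 and -0.37, while the number of members called moved widely. Over the named genes in the comparisons of states, of mutants and of their interaction, 783 results stayed on their side of the threshold with no called change of sign, though uncalled values such as Psmb10 in ciliated mutants (0.34, down to -0.77) could change sign, 82 were no longer called, 16 became called and 2 reversed, both Psmb8 in ciliated mutants (-2.08 without Wdr34 clone 3, the lowest, and 1.08 without G7, the highest, when 1 clone was left out, and -1.44 without both). The cause of these shifts was not tested. Without Wdr34 clone 3 Psmb8 was tested through its control level, so its reversals are no independent support. Replicate numbers did not pair the libraries: same-numbered libraries correlated at -0.49 to 0.86 in ciliated cells (84 pairs, median 0.03) and -0.55 to 0.35 in non-ciliated cells (60 pairs, median 0.03). With libraries as samples 38 members were called lower between states, and 37 with the replicate block. The block took the ciliated Wdr60 clone from 1 to 0 members higher. Libraries of a clone were correlated at 0.763, 0.714 and 0.746 by limma in the ciliated, non-ciliated and joint fits.

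Leaving out a clone or a replicate number gave these lowest and highest counts of members called. Between states they were 0 to 2 higher and 3 to 20 lower, in ciliated mutants 0 to 3 and 0 to 1, in non-ciliated mutants 0 to 19 and 0 to 1, and in the interaction 0 to 1 in each direction. Single clones gave 0 to 2 higher and 0 to 1 lower for Wdr34 clone 1, 0 to 8 and 4 to 7 for Wdr34 clone 3, 0 to 2 and 0 to 1 for ciliated Wdr60, 0 to 22 and 0 to 1 for non-ciliated Wdr34, and 0 to 10 and 0 to 4 for non-ciliated Wdr60. Clone sums and voom each called 0 members higher in ciliated and 0 in non-ciliated mutants. Over all genes they called 0 and 0 higher and lower by sums and 5 and 2 by voom in ciliated mutants (189 and 190 by libraries, and 946 and 1047 without G7), and 0 and 0 by sums and 0 and 9 by voom in non-ciliated mutants (855 and 948 by libraries). Between states DESeq2 called 1612 and 1648 genes and libraries as samples 3700 and 3521, against 802 and 962. DESeq2 called 1 member lower in each of Wdr34 clone 1 and ciliated Wdr60, 2 higher in ciliated Wdr60, and 4 higher and 1 lower in non-ciliated Wdr60. Without the libraries that stood apart, 18 members were higher and 1 lower in non-ciliated mutants, where 1421 of all genes rose and 1597 fell. In the same setting 2 members were higher in ciliated Wdr60, 22 higher in non-ciliated Wdr34, and 12 higher and 1 lower in non-ciliated Wdr60. Counts over all genes are not given here for these single clones. Whether their member calls follow a rise over the whole table was not tested. Members called higher between states were 0 with a filter of at least 1 count in any library, 1 with at least 10 in every library and 0 without the clones of low collecting duct markers, and without those clones and Wdr34 clone 3, 2 members were lower in ciliated mutants. A log2 fold change of at least 1 left 1 higher and 0 lower between states, 0 higher in ciliated, non-ciliated, ciliated Wdr60, non-ciliated Wdr34 and non-ciliated Wdr60 mutants, and 2 higher and 0 lower in Wdr34 clone 3. Psmb8 and Psmb9 had at most 21 counts in any non-ciliated library, and their mutant effect there was not tested.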
